A study of Mus musculus with 6 samples.

Results

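Transcripts were described for 79 mouse transporter genes, whose products carry amino acids, sugars, lactate and other monocarboxylates, and related small solutes across the membranes of cells. Members were all genes on the array whose symbol begins with Slc1a, Slc2a, Slc3a, Slc5a, Slc6a, Slc7a, Slc16a, Slc36a, Slc38a or Slc43a, with Slc1a3 left out. They were represented by 93 of 41006 probes, and the 79 genes stood among 37471 genes or unnamed transcripts on the array. Of the 79, 74 were bright enough to be tested. Transcripts were compared among 3 kinds of cultured mouse cells, with 2 arrays each. MAPC (multipotent adult progenitor cells) grew out of bone marrow, were rid of CD45- and Ter119-positive blood cells at 4 weeks and were replated at 10 cells per well. They were used after more than 80 population doublings in medium based on low-glucose DMEM with 2% serum, epidermal growth factor (10 ng/mL), PDGF-BB (10 ng/mL) and leukemia inhibitory factor (LIF, 1000 units/mL), in 5% oxygen. Both MAPC arrays are labelled as the same clone, named high in Oct4, and its strain is not given in the labels. ESC, embryonic stem cells of C57BL/6 mice, grew over irradiated embryo fibroblasts in high-glucose medium with 15% serum, LIF, glutamine and non-essential amino acids, and were plated off the feeders before RNA was taken. NS were C57BL/6 neurospheres, floating clusters of cells from the forebrain of E11.5 embryos, grown in N2-plus medium with basic fibroblast growth factor (20 ng/mL) and epidermal growth factor (20 ng/mL). No oxygen level is given for ESC or NS, and kind of cell, medium and oxygen cannot be told apart in these groups. Every array also carried the same reference RNA, a pool from 11 mouse cell lines, in the other dye, and dyes were not swapped.

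Solute carriers move nutrients down a gradient or against one. The GLUT proteins (Slc2a) let glucose and other hexoses pass down their gradient. The Slc1a, Slc5a, Slc6a and most Slc38a proteins couple uptake to sodium, whose gradient the sodium pump maintains. The MCT proteins (Slc16a) carry lactate and pyruvate together with a proton and need a membrane chaperone, basigin or embigin, to reach the surface. Many Slc7a proteins are light chains that work only when joined to a heavy chain of the Slc3a family. They exchange one amino acid for another, so import of leucine, arginine or cystine by them depends on another solute leaving the cell. Pluripotent and neural progenitor cells both divide fast and draw on such import for protein synthesis and for signalling through mTORC1.

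Each value is the log2 ratio of the sample signal to that of the reference, so that 0 means as much signal as in the reference pool and a difference of 1 between groups is 2-fold. Since each probe has its own response and its own level in the reference, a ratio shows how groups differ for a gene and not which of a pair of genes is more abundant. Differences were tested in limma over all genes at once, with Benjamini-Hochberg adjustment and a threshold of 0.05, and "called" means past that threshold. Between 91.9% and 99.6% of probe spots were well above background on an array. Replicate arrays of a group correlated at 0.979 to 0.989 over all genes, and arrays of different groups at 0.455 to 0.610. Replicates of the members differed by a root mean square of 0.13 in MAPC, 0.41 in ESC and 0.095 in NS, and the ESC figure was 0.16 without 1 gene, Slc5a5. Fits with 1 array left out and 12 other processing settings were also run, and where they lost a call stated below for a single transporter this is given beside it. The size of a difference depends on the background step. Without background subtraction the called values given here had a median of 0.685 times their reported size, and 76 of 163 were over 1.5 times apart from it. The series text calls replicates biological. Since both MAPC arrays come from 1 clone, p-values measure the spread between these samples only. ESC and NS carried the markers of their labels, with a mean ratio of 4.30 and 4.17 for 7 ESC markers in ESC and of 4.01 and 3.89 for 6 neural progenitor markers in NS. No marker list for MAPC was used, and 5 primitive endoderm markers averaged 4.09 and 4.15 there. In MAPC the ESC markers averaged 0.61 and 0.65, with Pou5f1, the gene of Oct4, at 0.90 and 1.33 and with Dppa3 and Gdf3 not well above background. Of 6 fibroblast markers, 5 were called higher in ESC than in MAPC and 5 higher in ESC than in NS. Their mean was 0.28 and 0.21 in ESC, -2.66 and -2.68 in MAPC, and -1.54 and -1.59 in NS. None of the 6 was below background on both arrays of ESC or NS, while Postn was not well above it in MAPC. Other lists averaged, over both arrays of a group, as follows. The 3 macrophage markers stood at -1.48 and -1.38 in ESC, against -2.63 and -2.49 in MAPC and -2.48 and -2.57 in NS. The 4 neuron markers averaged 1.84 and 1.83 in ESC, 0.076 and 0.13 in MAPC, and 1.12 and 1.10 in NS. The 2 astrocyte markers averaged 2.58 in both NS arrays, -0.13 and -0.088 in MAPC, and 0.39 and 0.28 in ESC. Whether feeder cells left in the ESC cultures contributed to any transporter value was not tested, and RNA from fewer cells of a kind cannot be told apart from less RNA per cell.

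Transporter transcripts differed between each pair of cell kinds, in both directions. Between MAPC and ESC, 32 of 74 members were called (43.2%), 14 higher and 18 lower in MAPC. On the sample channel alone the split was 13 higher and 11 lower. Over all genes 16% were called higher and 22.1% lower. Over all genes tested the share was 38.1%, and over the genes with a symbol it was 50.4%. Between MAPC and NS, 40 of 74 were called (54.1%), 19 higher and 21 lower in MAPC, against 43.7% of all genes (21.2% higher, 22.5% lower) and 55.2% of genes with a symbol. Between ESC and NS, 36 of 74 were called (48.6%), 20 higher and 16 lower in ESC, against 38.2% (19.8% higher, 18.4% lower) and 51.1%. These shares were thus near those of other genes with a symbol. The all-gene shares set beside substrate classes and patterns below include many unnamed transcripts, and genes with a symbol were called more often in each comparison. The members' median difference was close to 0 in each comparison, at -0.0010, 0.044 and 0.035, beside 0.012, 0.032 and 0.0082 over all genes. Differences of at least 2-fold were fewer. MAPC exceeded ESC by that much for 5 of 74 members and fell below it for 6 of 74, against 2.95% and 5.61% of all genes, 8.56% together. Against NS the counts were 9 and 7 of 74 (background 4.44% and 6.97%, 11.4% together), and between ESC and NS they were 3 and 2 of 74 (background 4.72% and 4.26%, 8.97% together). These backgrounds include the unnamed transcripts too, and no such share over genes with a symbol is given. The values of 77 genes on each array are drawn in the heat map.

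**Figure D1:**
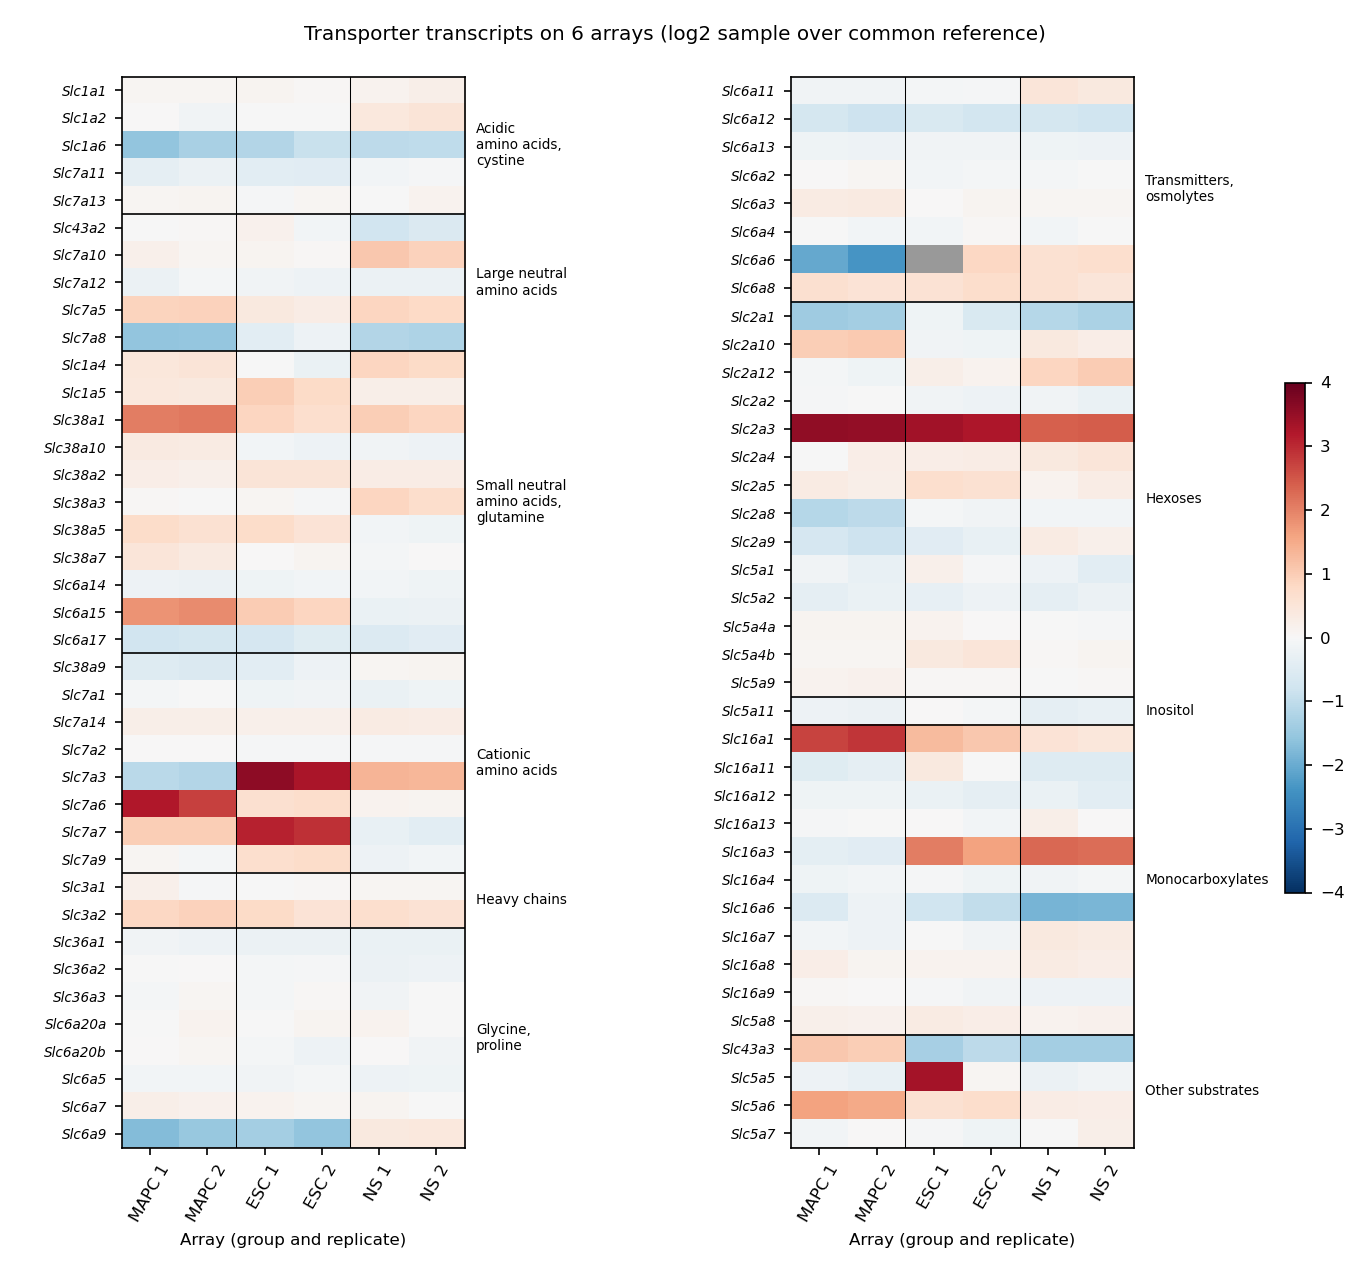
Log2 ratio of sample to reference for 77 transporter genes (rows, by substrate) on the 6 arrays (columns), with red above the reference and blue below it on a scale from -4 to 4. Slc6a9 is above the reference in NS alone, Slc7a3 and Slc7a7 stand out in ESC and Slc7a6 and Slc16a1 in MAPC, and Slc5a5 differs between the ESC arrays; the grey cell is a spot left out as an outlier.

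The pattern over groups varied from gene to gene. In 12 members MAPC was called above both other groups (16.2%, against 4133 of 35998 genes in all), namely Slc2a3, Slc2a10, Slc6a3, Slc6a15, Slc7a6, Slc16a1, Slc16a6, Slc38a1, Slc38a7, Slc38a10, Slc43a3 and Slc5a6. MAPC lay below both in 10 members (13.5%, against 12.7% of all genes). ESC lay above both in 10 (13.5%, against 11%) and below both in 3 (4.05%, against 4.76%). NS lay above both in 14 members (18.9%, against 14.1%), among them the GABA carrier Slc6a11, the glycine carrier Slc6a9, the glutamate carrier Slc1a2 and the glutamine carrier Slc38a3. NS lay below both in 9 (12.2%, against 10.3%). A further 24 members were called in none of the comparisons (32.4%, against 44.5%).

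Carriers of arginine, lysine and other cationic amino acids held the largest MAPC minus ESC difference of any tested member. Slc7a3 was high in ESC, intermediate in NS and low in MAPC, Slc7a6 was high in MAPC alone, and Slc7a7 was high in ESC. Of 8 cationic members, 1 was called higher and 4 lower in MAPC than in ESC, 3 higher and 2 lower in MAPC than in NS, and 4 higher and 1 lower in ESC than in NS. That is 62.5% in each comparison, against 38.1%, 43.7% and 38.2% of all genes and 50.4%, 55.2% and 51.1% of genes with a symbol. The group's median differences were -0.10, 0.11 and 0.29 in the same order.

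Slc7a3 encodes CAT3, a facilitated carrier of arginine and lysine. Its ratio was 3.56 and 3.26 in ESC, 1.36 and 1.32 in NS, and -1.09 and -1.16 in MAPC. The 3 groups did not overlap, and in MAPC the signal was below that of the reference pool. MAPC lay 23.2-fold below ESC, a log2 difference of -4.53 (SE 0.096, adjusted p = 4.43e-08), and 5.52-fold below NS, a difference of -2.47 (SE 0.096, adjusted p = 4.55e-07). ESC exceeded NS by 2.07 (SE 0.096, adjusted p = 1.71e-06). A second probe of the gene, which shares no run of bases longer than 7 with the first, gave 2.78 and 2.58 in ESC, 0.92 and 0.87 in NS, and -0.80 and -0.71 in MAPC. It put the groups in the same order, with a MAPC minus ESC difference of -3.44 (adjusted p = 5.01e-08). The probes are shown by their first 30 of 60 bases because their separate sequences gave the same ordering.
Slc7a3 probe 1: ggcctctcatgtggtgttagtgacggatat
Slc7a3 probe 2: tcacagcatttgacctaaccatacctaatt

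Slc7a6 encodes y+LAT2, a light chain that releases arginine in exchange for neutral amino acids and sodium. It read 3.21 and 2.72 in MAPC, 0.63 and 0.70 in ESC, and 0.15 and 0.12 in NS. MAPC were far above the other groups, by 2.30 (SE 0.14, adjusted p = 7.05e-06) over ESC and 2.83 (SE 0.14, adjusted p = 1.52e-06) over NS, or 7.12-fold over NS. ESC lay above NS by 0.53 (SE 0.14, adjusted p = 0.0185), and that call was lost without ESC replicate 2 at 0.49 (adjusted p = 0.078), and, with NS replicate 1 or 2 dropped, at 0.54 (adjusted p = 0.0753) or 0.51 (adjusted p = 0.0903). Without background subtraction it was 0.28 (adjusted p = 0.228) and on the sample channel alone 0.28 (adjusted p = 0.275), neither called. Slc7a7 encodes y+LAT1, the related light chain whose loss causes lysinuric protein intolerance. Its ratios of 3.09 and 2.92 in ESC, 0.98 and 0.99 in MAPC, and -0.31 and -0.42 in NS kept the groups apart. ESC exceeded MAPC, with a MAPC minus ESC difference of -2.01 (SE 0.073, adjusted p = 4.99e-07). ESC also exceeded NS, by 3.37 (SE 0.073, adjusted p = 5.54e-08) or 10.3-fold, and MAPC exceeded NS by 1.35 (SE 0.073, adjusted p = 2.6e-06). Between MAPC and ESC, y+LAT2 was thus higher in MAPC and y+LAT1 higher in ESC.

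Slc7a1 encodes CAT1, the widely expressed arginine and lysine carrier. It stayed near the reference, at -0.068 and -0.018 in MAPC, -0.18 and -0.15 in ESC, and -0.26 and -0.17 in NS. Neither the MAPC minus ESC difference of 0.12 (adjusted p = 0.145) nor the ESC minus NS difference of 0.052 (adjusted p = 0.562) was called. MAPC lay above NS by 0.17 (SE 0.057, adjusted p = 0.0417), but on the sample channel alone the difference was -0.22 (adjusted p = 0.283), of the opposite sign. That call was also lost without any 1 of the 6 arrays, with adjusted p from 0.0507 to 0.219, and in 6 of 12 other processing settings (adjusted p from 0.0501 to 0.368). Slc7a9, the light chain of the cystine and cationic carrier of kidney and gut, was called higher in ESC than in both other groups, at 0.69 and 0.72 in ESC, 0.082 and -0.082 in MAPC, and -0.21 and -0.11 in NS. Slc38a9, a lysosomal arginine sensor of mTORC1, was higher in NS, at 0.073 and 0.12 in NS, -0.41 and -0.20 in ESC, and -0.53 and -0.57 in MAPC. Slc7a2, the inducible carrier CAT2, and Slc7a14 were called in no comparison, and none of their ratios left the range from -0.059 to 0.32.

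Of the 2 heavy chains, 1 was called, in 1 comparison. Slc3a2, the CD98 heavy chain that most of these light chains require, was above the reference in every group, at 0.83 and 0.93 in MAPC, 0.77 and 0.54 in ESC, and 0.67 and 0.58 in NS. The MAPC arrays lay above the other 4, and ESC and NS overlapped. The MAPC minus ESC difference of 0.22 (adjusted p = 0.081) was not called. MAPC exceeded NS by 0.25 (SE 0.085, adjusted p = 0.044). Leaving out MAPC replicate 1 gave 0.30 (adjusted p = 0.0687), MAPC replicate 2 0.21 (adjusted p = 0.190), NS replicate 1 0.30 (adjusted p = 0.085) and NS replicate 2 0.21 (adjusted p = 0.202), so the call was lost without any 1 of those 4 arrays. It was also lost in 6 of 12 other processing settings (adjusted p from 0.0736 to 0.318). Without ESC replicate 1 the MAPC minus ESC difference became 0.34 (adjusted p = 0.0136). Slc3a1, the heavy chain of the kidney carrier, was called in no comparison.

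Slc7a5 encodes LAT1, the leucine carrier that pairs with Slc3a2. It was 0.89 and 0.92 in MAPC, 0.38 and 0.28 in ESC, and 0.86 and 0.80 in NS. Both ESC arrays lay below all arrays of the other groups. MAPC exceeded ESC by 0.57 (SE 0.058, adjusted p = 0.000126), and ESC lay below NS at -0.50 (SE 0.058, adjusted p = 0.000249), a call lost on the sample channel alone at -0.51 (adjusted p = 0.0572). MAPC and NS differed by 0.073 (95% interval -0.063 to 0.21), which was not called. Slc7a8 encodes LAT2, a second light chain for neutral amino acids, and went the other way at -0.41 and -0.20 in ESC, -1.18 and -1.24 in NS, and -1.59 and -1.56 in MAPC. ESC were highest and MAPC lowest. The MAPC minus ESC difference was -1.27 (SE 0.077, adjusted p = 7.21e-06), and ESC exceeded NS by 0.91 (SE 0.077, adjusted p = 4.28e-05). MAPC lay below NS at -0.37 (SE 0.077, adjusted p = 0.00561), which was not called without background subtraction, at -0.090 (adjusted p = 0.135), or on the sample channel alone, at -0.27 (adjusted p = 0.0933). Slc7a10, the light chain Asc-1 for small neutral amino acids and D-serine, was called higher in NS than in the others, at 1.07 and 0.91 in NS, 0.19 and 0.078 in MAPC, and 0.12 and 0.059 in ESC. Slc43a2, the facilitated carrier LAT4, was called lower in NS, at -0.78 and -0.58 in NS, -0.00053 and 0.046 in MAPC, and 0.16 and -0.097 in ESC, but both calls were lost on the sample channel alone, at 0.57 (adjusted p = 0.115) for MAPC minus NS and 0.70 (adjusted p = 0.077) for ESC minus NS. Slc7a10 was counted with the large neutral members although it carries small neutral amino acids. Of those 5 members, 2 were called between MAPC and ESC, 3 between MAPC and NS and 4 between ESC and NS (40%, 60% and 80%, beside 38.1%, 43.7% and 38.2% of all genes).

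Of 4 tested carriers of acidic amino acids and cystine, 1, 3 and 2 were called in the comparisons of MAPC with ESC, MAPC with NS and ESC with NS. These shares of 25%, 75% and 50% stand beside 38.1%, 43.7% and 38.2% of all genes, and every call was toward lower ratios in the group named first. Slc7a11 encodes the light chain of xCT, which brings in cystine for glutathione synthesis against glutamate. Its ratios were -0.35 and -0.24 in MAPC, -0.41 and -0.44 in ESC, and -0.11 and -0.040 in NS. NS were the highest group, and MAPC and ESC did not overlap but differed by only 0.13 (adjusted p = 0.146), which was not called. ESC lay below NS at -0.35 (SE 0.061, adjusted p = 0.00242) and MAPC at -0.22 (SE 0.061, adjusted p = 0.0208). The MAPC call was lost without MAPC replicate 1, at -0.16 (adjusted p = 0.121), and when NS replicate 2 was dropped, at -0.19 (adjusted p = 0.126). It was also lost in 3 of 11 other processing settings (adjusted p from 0.104 to 0.457). The signal of Slc7a11 was dim, and well above background on only 1 of the 2 MAPC arrays. Its MAPC minus NS difference ran from -0.74 to -0.045 over the fits, smallest without background subtraction. The ESC call was lost on the sample channel alone, at -0.26 (adjusted p = 0.138), and in the deposited processed intensities, at -0.76 (adjusted p = 0.0507). Its promoter is shown because Slc7a11 is a known target of ATF4, the transcription factor of amino acid shortage, which binds sites of the form TGATGNAA. In the 250 bases before the RefSeq start (assembly GRCm38.p6), a pair of facing copies, in capitals, began 66 and 47 bases before the start. The stretch lies at chr3:50443623-50443709 and is written along the minus strand, which is that of the gene.
Slc7a11 promoter: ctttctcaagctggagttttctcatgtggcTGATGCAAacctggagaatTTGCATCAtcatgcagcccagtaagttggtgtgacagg
RefSeq promoters were found for 55 of the 79 genes, 74 promoters in all, and TGATGNAA on either strand was in 3 of those 74 (4.05%), against 3.45% of 32851 promoters of the same length. The other 2 were alternative promoters of Slc7a7. A match is a string of letters and shows no binding.

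Slc1a2, the glial glutamate carrier GLT-1, was 0.41 and 0.52 in NS, 0.023 and -0.14 in MAPC, and -0.0087 and -0.012 in ESC. In MAPC it was not well above background on either array, so its level there is a bound, and NS were at least 1.34-fold higher than MAPC (adjusted p = 0.000578). That bound sets the mean of NS against the lowest signal counted as above background, or the probe's own signal where that is higher. ESC lay below NS at -0.47 (SE 0.072, adjusted p = 0.00118), not called on the sample channel alone at -0.32 (adjusted p = 0.0667) or in the deposited processed intensities at -1.48 (adjusted p = 0.0549). Slc1a6, a glutamate carrier of Purkinje cells, lay below the reference on every array, from -1.57 in MAPC to -0.88 in ESC. It held the 1 MAPC minus ESC call of this class, at -0.41 (adjusted p = 0.0226), and a MAPC minus NS call at -0.40 (adjusted p = 0.0211). Each was lost in 3 of 12 other processing settings (adjusted p from 0.0879 to 0.479 and from 0.0679 to 0.272). The first was lost without MAPC replicate 1, at -0.28, or ESC replicate 2, at -0.27. The second was lost without MAPC replicate 1, at -0.27, NS replicate 1, at -0.41, or NS replicate 2, at -0.40. Slc1a1 was not tested, and its signal passed the 95th percentile of the negative control probes on 3 of 6 arrays.

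With Slc6a15 counted in, although it carries branched-chain amino acids, 11 tested members made up the class of small neutral amino acids and glutamine. Of these, 5 were called higher and 2 lower in MAPC than in ESC, 5 higher and 3 lower in MAPC than in NS, and 4 higher and 2 lower in ESC than in NS. In all, 63.6%, 72.7% and 54.5% were called, where over all genes it was 38.1%, 43.7% and 38.2%. Over genes with a symbol it was 50.4%, 55.2% and 51.1%. Slc38a1 encodes SNAT1, a sodium-coupled glutamine importer. It was 2.04 and 2.11 in MAPC, 0.86 and 0.67 in ESC, and 0.99 and 0.85 in NS. MAPC were above the other groups, by 1.31 (SE 0.081, adjusted p = 8.08e-06) over ESC and 1.15 (SE 0.081, adjusted p = 1.15e-05) over NS. ESC and NS overlapped and differed by -0.16 (adjusted p = 0.188), which was not called. Slc6a15 encodes B0AT2, a carrier of branched-chain amino acids and proline, and fell in steps from MAPC to NS, at 1.81 and 1.88 in MAPC, 1.01 and 0.86 in ESC, and -0.26 and -0.24 in NS. No groups overlapped. MAPC exceeded ESC by 0.91 (SE 0.066, adjusted p = 1.91e-05) and NS by 2.09 (SE 0.066, adjusted p = 1.48e-07), or 4.27-fold, and ESC exceeded NS by 1.18 (SE 0.066, adjusted p = 4.19e-06).

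Slc1a5 encodes ASCT2, the sodium-dependent exchanger through which many dividing cells take up glutamine. It was 0.97 and 0.77 in ESC, 0.43 and 0.38 in MAPC, and 0.24 and 0.24 in NS. ESC were the highest group. The MAPC minus ESC difference was -0.47 (SE 0.074, adjusted p = 0.00157), and ESC exceeded NS by 0.63 (SE 0.074, adjusted p = 0.000275). MAPC and NS differed by 0.16 (adjusted p = 0.119). This last difference was called when ESC replicate 1 was left out, at 0.16 (adjusted p = 0.0458), or ESC replicate 2, at 0.16 (adjusted p = 0.0453). Slc1a4, the related alanine, serine and cysteine exchanger ASCT1, was lowest in ESC, at 0.86 and 0.78 in NS, 0.44 and 0.51 in MAPC, and -0.020 and -0.26 in ESC, and was called in all 3 comparisons. Its MAPC minus NS call, -0.34 (adjusted p = 0.0125), was lost when MAPC replicate 1 was dropped, at -0.31 (adjusted p = 0.0681), or NS replicate 1, at -0.30 (adjusted p = 0.0814), and in 3 of 12 other processing settings (adjusted p from 0.0577 to 0.0816).

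Slc38a2 encodes SNAT2, which amino acid shortage is known to induce. It was 0.51 and 0.52 in ESC, 0.29 and 0.28 in NS, and 0.28 and 0.21 in MAPC. ESC lay above the other arrays by small margins, with MAPC minus ESC at -0.27 (SE 0.053, adjusted p = 0.00496) and ESC minus NS at 0.23 (SE 0.053, adjusted p = 0.0107). A second probe gave -0.084 and -0.042 in ESC, -0.077 and -0.065 in NS, and 0.033 and 0.031 in MAPC, with no called difference, and the mean of both probes gave -0.086 (adjusted p = 0.232) and 0.12 (adjusted p = 0.113). The MAPC minus ESC call was lost on the sample channel alone too, at -0.21 (adjusted p = 0.152). On the sample channel alone the ESC minus NS difference was -0.036 (adjusted p = 0.854), of the opposite sign. It was 0.23 (adjusted p = 0.0545) with NS replicate 1 left out and 0.22 (adjusted p = 0.0611) with NS replicate 2 left out. Among the other members, Slc38a3, the glutamine carrier SNAT3 of astrocytes and liver, was called higher in NS at 0.87 and 0.72 in NS, 0.048 and -0.013 in MAPC, and 0.077 and -0.052 in ESC. Slc38a5, the glutamine carrier SNAT5, was called lower in NS, at -0.12 and -0.16 in NS, 0.73 and 0.60 in MAPC, and 0.74 and 0.54 in ESC. Slc38a7 and Slc38a10 were called higher in MAPC than in both other groups, by 0.36 to 0.52.

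Among carriers of glycine and proline, 1 gene stood apart. Slc6a9 encodes GlyT1, which takes up glycine around neurons. It read 0.40 and 0.41 in NS, -1.36 and -1.59 in ESC, and -1.74 and -1.52 in MAPC. Both NS arrays were above the reference and all 4 others far below it. MAPC lay 4.09-fold below NS, at -2.03 (SE 0.096, adjusted p = 1.25e-06), and ESC minus NS was -1.88 (SE 0.096, adjusted p = 2.63e-06). MAPC and ESC overlapped, with a difference of -0.15 (adjusted p = 0.279) that was not called. The other 6 tested members of this class held 1 call, Slc36a2 between MAPC and NS at 0.22 (adjusted p = 0.011). That call was lost when MAPC replicate 2 was dropped, at 0.20 (adjusted p = 0.0604), or NS replicate 1, at 0.20 (adjusted p = 0.0715), and in 2 of 12 other processing settings (adjusted p from 0.139 to 0.249). In all, 0 of 7, 2 of 7 and 1 of 7 were called (0%, 28.6% and 14.3%, beside 38.1%, 43.7% and 38.2% of all genes). Differences of these 6 reached at most 0.22 in size.

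Of 9 tested carriers of neurotransmitters and osmolytes, 1 was called higher and 1 lower in MAPC than in ESC, 1 higher and 3 lower in MAPC than in NS, and 2 lower in ESC than in NS. Their shares of calls were 22.2%, 44.4% and 22.2%, with 38.1%, 43.7% and 38.2% over all genes. Slc6a11, the astrocyte GABA carrier GAT3, was called higher in NS than in both other groups, at 0.47 and 0.39 in NS, -0.080 and -0.060 in ESC, and -0.13 and -0.13 in MAPC. Slc6a12 and Slc6a13, further carriers of GABA and betaine, were called in no comparison. In the same NS arrays the astrocyte marker Aldh1l1 stood at 4.24 on both, and whether that marker's cells carried the Slc6a11 transcript was not tested.

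Slc6a6 encodes the taurine carrier. It read -2.06 and -2.36 in MAPC, 0.82 on 1 array of ESC, and 0.60 and 0.67 in NS. The spot on ESC replicate 1 was left out because its pixels were marked as uneven, so ESC had 1 array. Both MAPC arrays lay far below the other 3. MAPC were 7.18-fold below NS, at -2.84 (SE 0.10, adjusted p = 1.26e-06), and minus ESC the difference was -3.03 (SE 0.13, adjusted p = 3.66e-06). With the marked spot kept, the MAPC minus ESC difference was -3.01 (adjusted p = 4.69e-07). ESC and NS differed by 0.19 (adjusted p = 0.328), which was not called. Slc6a8, the creatine carrier, was 0.65 and 0.55 in MAPC, 0.57 and 0.70 in ESC, and 0.62 and 0.48 in NS. All groups overlapped, no comparison was called, and the 95% intervals of the 3 differences lay between -0.21 and 0.26.

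Hexose carriers, with the urate carrier Slc2a9 counted among them, were ordered differently by gene. Of 13 tested, 2 were called higher and 6 lower in MAPC than in ESC, 2 higher and 4 lower in MAPC than in NS, and 5 higher and 3 lower in ESC than in NS. Calls thus covered 61.5%, 46.2% and 61.5% of the class, against all-gene shares of 38.1%, 43.7% and 38.2%. Among genes with a symbol the shares were 50.4%, 55.2% and 51.1%. Slc2a3 encodes GLUT3, the high-affinity glucose carrier of neurons and early embryos. It was 3.56 and 3.51 in MAPC, 3.35 and 3.23 in ESC, and 2.40 and 2.44 in NS. MAPC were highest and NS lowest, without overlap. MAPC exceeded NS by 1.12 (SE 0.062, adjusted p = 2.98e-06) and ESC exceeded NS by 0.87 (SE 0.062, adjusted p = 1.58e-05). The excess of MAPC over ESC was only 0.25 (SE 0.062, adjusted p = 0.0149). That call was lost without MAPC replicate 1, at 0.22 (adjusted p = 0.0779), and without ESC replicate 2, at 0.18 (adjusted p = 0.0767), as well as in 2 of 12 other processing settings (adjusted p from 0.0514 to 0.107).

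Slc2a1 encodes GLUT1, the glucose carrier of most tissues, whose gene low oxygen is known to induce. It was -0.18 and -0.61 in ESC, -1.13 and -1.27 in NS, and -1.43 and -1.37 in MAPC. All arrays lay below the reference. ESC were highest, with MAPC minus ESC at -1.01 (SE 0.13, adjusted p = 0.000468) and ESC minus NS at 0.81 (SE 0.13, adjusted p = 0.00151). MAPC, grown in 5% oxygen, differed from NS by -0.20 (adjusted p = 0.251), which was not called. Without ESC replicate 1 that difference was called at -0.20 (adjusted p = 0.0444), and without ESC replicate 2 at -0.20 (adjusted p = 0.0442). The 95% interval of the MAPC minus NS difference of GLUT1 was -0.51 to 0.098, while GLUT3 was highest in MAPC.

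Slc2a10 encodes GLUT10, a carrier of the secretory membranes, and was 0.97 and 1.05 in MAPC, -0.14 and -0.16 in ESC, and 0.39 and 0.27 in NS. MAPC lay above ESC by 1.17 (SE 0.063, adjusted p = 3.83e-06) and above NS by 0.68 (SE 0.063, adjusted p = 5.44e-05), and ESC lay below NS at -0.48 (SE 0.063, adjusted p = 0.000471). A second probe gave the same order, with differences of 0.97, 0.63 and -0.33, all called. Slc2a12, which encodes GLUT12, was 0.87 and 1.00 in NS, 0.23 and 0.13 in ESC, and -0.086 and -0.19 in MAPC, highest in NS and lowest in MAPC. MAPC minus NS was -1.07 (SE 0.070, adjusted p = 7.92e-06) and ESC minus NS was -0.76 (SE 0.070, adjusted p = 7.18e-05). The smaller MAPC minus ESC difference of -0.32 (adjusted p = 0.00876) was lost without MAPC replicate 2, at -0.27 (adjusted p = 0.0582), and in 2 of 12 other processing settings (adjusted p from 0.0599 to 0.479). Its second probe, whose signal was dim, showed none of these differences, as given with the probe plots.

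Slc2a9, whose product GLUT9 carries urate, was 0.33 and 0.20 in NS, -0.46 and -0.29 in ESC, and -0.67 and -0.84 in MAPC. It had the same order as Slc2a12. MAPC minus NS was -1.02 (SE 0.087, adjusted p = 3.49e-05), ESC minus NS was -0.63 (SE 0.087, adjusted p = 0.000636), and MAPC minus ESC was -0.38 (SE 0.087, adjusted p = 0.00926). The last of these was lost without MAPC replicate 2, at -0.30 (adjusted p = 0.0607), and without ESC replicate 2, at -0.30 (adjusted p = 0.0518), and in 2 of 12 other processing settings (adjusted p from 0.066 to 0.198). Slc2a8, which encodes the intracellular GLUT8, was low in MAPC, at -1.15 and -1.05 in MAPC, -0.071 and -0.14 in ESC, and -0.12 and -0.11 in NS, with differences of -0.99 (adjusted p = 6.93e-06) and -0.99 (adjusted p = 4.83e-06). Slc2a5, the fructose carrier GLUT5, and Slc5a4b, of the sodium-glucose family, were called higher in ESC than in both other groups, though the MAPC minus ESC calls were lost on the sample channel alone, at -0.054 (adjusted p = 0.764) and -0.20 (adjusted p = 0.175). Slc2a4, the insulin-responsive GLUT4, was called lower in MAPC than in NS, at -0.31 (adjusted p = 0.027). Dropping MAPC replicate 1 gave -0.17 (adjusted p = 0.115), NS replicate 1 -0.35 (adjusted p = 0.0665) and NS replicate 2 -0.27 (adjusted p = 0.140), and the call was also lost in 4 of 12 other processing settings (adjusted p from 0.0742 to 0.213). Of the sodium-coupled carriers, Slc5a2, Slc5a4a and Slc5a9 were called in no comparison and Slc5a1 only between ESC and NS, at 0.40 (adjusted p = 0.0209). Without ESC replicate 1 this was 0.28 (adjusted p = 0.113), and dropping NS replicate 2 gave 0.29 (adjusted p = 0.141). The call was not made in 4 of 12 other processing settings (adjusted p from 0.0577 to 0.172). Its MAPC minus ESC difference was called without ESC replicate 2, at -0.41 (adjusted p = 0.0316), and with the replicate number as a block, at -0.29 (adjusted p = 0.00378). Slc5a11, the only inositol carrier measured, was called between ESC and NS at 0.28 (adjusted p = 0.00638). This was lost without NS replicate 1, at 0.25 (adjusted p = 0.0531), and with the mean of its probes, at 0.15 (adjusted p = 0.0621), and turned sign on the sample channel alone, at -0.068 (adjusted p = 0.805).

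Carriers of lactate and pyruvate split in MAPC. Slc16a1 encodes MCT1, which moves lactate and pyruvate in either direction. It was 2.70 and 2.85 in MAPC, 1.25 and 1.06 in ESC, and 0.53 and 0.46 in NS. MAPC were highest and NS lowest, without overlap. MAPC exceeded ESC by 1.61 (SE 0.083, adjusted p = 2.96e-06) and NS by 2.27 (SE 0.083, adjusted p = 3.1e-07), 3.06-fold and 4.84-fold, and ESC exceeded NS by 0.66 (SE 0.083, adjusted p = 0.000381). Its second probe did not show this. Slc16a3 encodes MCT4, the lactate exporter of glycolytic cells, which low oxygen is known to induce. It was 2.31 and 2.23 in NS, 2.05 and 1.59 in ESC, and -0.40 and -0.44 in MAPC. MAPC lay below the reference and below all other arrays, 4.74-fold below ESC at -2.24 (SE 0.13, adjusted p = 5.89e-06) and 6.47-fold below NS at -2.69 (SE 0.13, adjusted p = 1.44e-06). ESC minus NS was -0.45 (SE 0.13, adjusted p = 0.0286), lost when NS replicate 1 was dropped, at -0.41 (adjusted p = 0.137), or NS replicate 2, at -0.49 (adjusted p = 0.0854), and in 3 of 12 other processing settings (adjusted p from 0.0717 to 0.0826).

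Slc16a6 encodes MCT7, a carrier of ketone bodies, and was below the reference on all arrays, at -0.54 and -0.19 in MAPC, -0.80 and -0.98 in ESC, and -1.87 and -1.84 in NS. NS were lowest. MAPC exceeded NS by 1.49 (SE 0.12, adjusted p = 2.09e-05) and ESC by 0.52 (SE 0.12, adjusted p = 0.00849), and ESC exceeded NS by 0.96 (SE 0.12, adjusted p = 0.000303). Slc16a7, which encodes MCT2, a carrier with high affinity for pyruvate, was called higher in NS than in both others, at 0.40 and 0.34 in NS, -0.029 and -0.14 in ESC, and -0.11 and -0.20 in MAPC. On the sample channel alone its ESC minus NS difference was not called, at -0.26 (adjusted p = 0.0997). Slc16a11 was called higher in ESC, at 0.39 and -0.0099 in ESC, -0.48 and -0.36 in MAPC, and -0.50 and -0.51 in NS, and its MAPC minus ESC call was lost in the same setting, at -0.41 (adjusted p = 0.0737). Slc16a8, the lactate carrier MCT3 of the eye, and Slc5a8, a sodium-coupled monocarboxylate carrier, were called in no comparison. Of 9 tested monocarboxylate members, 4 were called between MAPC and ESC, 5 between MAPC and NS and 5 between ESC and NS, or 44.4%, 55.6% and 55.6%, against 38.1%, 43.7% and 38.2% of all genes. Embigin (Emb), a chaperone of these carriers, was 2.69 and 2.43 in ESC, -0.14 and -0.15 in MAPC, and -0.61 and -0.65 in NS. ESC stood far above the others, with MAPC minus ESC at -2.70 (SE 0.085, adjusted p = 2.62e-07) and ESC minus NS at 3.19 (SE 0.085, adjusted p = 1.3e-07), and MAPC exceeded NS by 0.49 (SE 0.085, adjusted p = 0.00212), a call lost without background subtraction at 0.15 (adjusted p = 0.157). Basigin is not analysed here.

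Promoters of some glucose and lactate carriers that hold the core ACGTG are shown because low oxygen is known to act through it, and MAPC were grown in 5% oxygen. In the 250 bases before the RefSeq start, ACGTG on either strand, in capitals below, was found 1 time in Slc2a1, 2 times in Slc16a3 and as an overlapping pair, CACGTG, in Slc16a1. The stretches, along the plus strand of GRCm38.p6, lie at chr4:119108679-119108743, chr11:120949010-120949066 and chr3:104638434-104638499.
Slc2a1 promoter: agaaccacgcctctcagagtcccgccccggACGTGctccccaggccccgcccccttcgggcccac
Slc16a3 promoter: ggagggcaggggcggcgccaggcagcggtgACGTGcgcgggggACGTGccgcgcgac
Slc16a1 promoter: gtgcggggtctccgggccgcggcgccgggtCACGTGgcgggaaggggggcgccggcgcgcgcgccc
The first copies begin 36, 27 and 200 bases before the start. Over the transporter promoters, 18 of 74 held ACGTG (24.3%), against 16.6% of all promoters. Slc16a1, Slc2a1 and Slc16a3 all hold it, as do Slc5a1 and Slc16a12. No match was found for Slc2a3, Slc2a10 or any other Slc2a gene, but not every member had a RefSeq promoter to search. MAPC were above both other groups on the brighter probe of Slc16a1 but not on its second probe. They were below both for Slc16a3 and below ESC for Slc2a1. Whether oxygen had a part in these differences was not tested, and it cannot be told apart from kind of cell and medium. Whether any factor binds at these copies was not measured.

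Members with other substrates also separated the groups. Slc43a3 carries purine nucleobases and was 1.08 and 0.98 in MAPC, -1.32 and -1.03 in ESC, and -1.37 and -1.37 in NS. Both MAPC arrays were above the reference and the other 4 below it. They exceeded ESC by 2.21 (SE 0.094, adjusted p = 1.16e-06) and NS by 2.40 (SE 0.094, adjusted p = 4.64e-07), while ESC and NS arrays did not overlap but the difference of 0.20 (adjusted p = 0.160) was not called. Without ESC replicate 1 this last difference was called at 0.34 (adjusted p = 0.01). Slc5a6, the sodium-coupled carrier of biotin and pantothenate, was 1.60 and 1.52 in MAPC, 0.61 and 0.70 in ESC, and 0.31 and 0.26 in NS. MAPC exceeded ESC by 0.90 (SE 0.059, adjusted p = 1.12e-05) and NS by 1.27 (SE 0.059, adjusted p = 1.17e-06), and ESC exceeded NS by 0.37 (SE 0.059, adjusted p = 0.00157), a call lost on the sample channel alone at 0.23 (adjusted p = 0.205).

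Slc5a7, the choline carrier of cholinergic neurons, was called in no comparison. Slc5a5, the iodide carrier, is named here because of its values: 3.33 and 0.066 in ESC, -0.20 and -0.30 in MAPC, and -0.23 and -0.15 in NS. Only ESC replicate 1 was high, and no comparison was called. Without ESC replicate 1 the MAPC minus ESC difference was -0.32 (adjusted p = 0.0176), and without ESC replicate 2 it was -3.58 (adjusted p = 4.05e-07). ESC minus NS was 0.26 (adjusted p = 0.039) and 3.52 (adjusted p = 5.09e-07) in the same fits. The gene had a single probe and its spot was not marked as an outlier. Its raw sample intensity had a mean of 3410 over 27 pixels on ESC replicate 1 and of 445 over 28 pixels on ESC replicate 2.

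**Figure D2:**
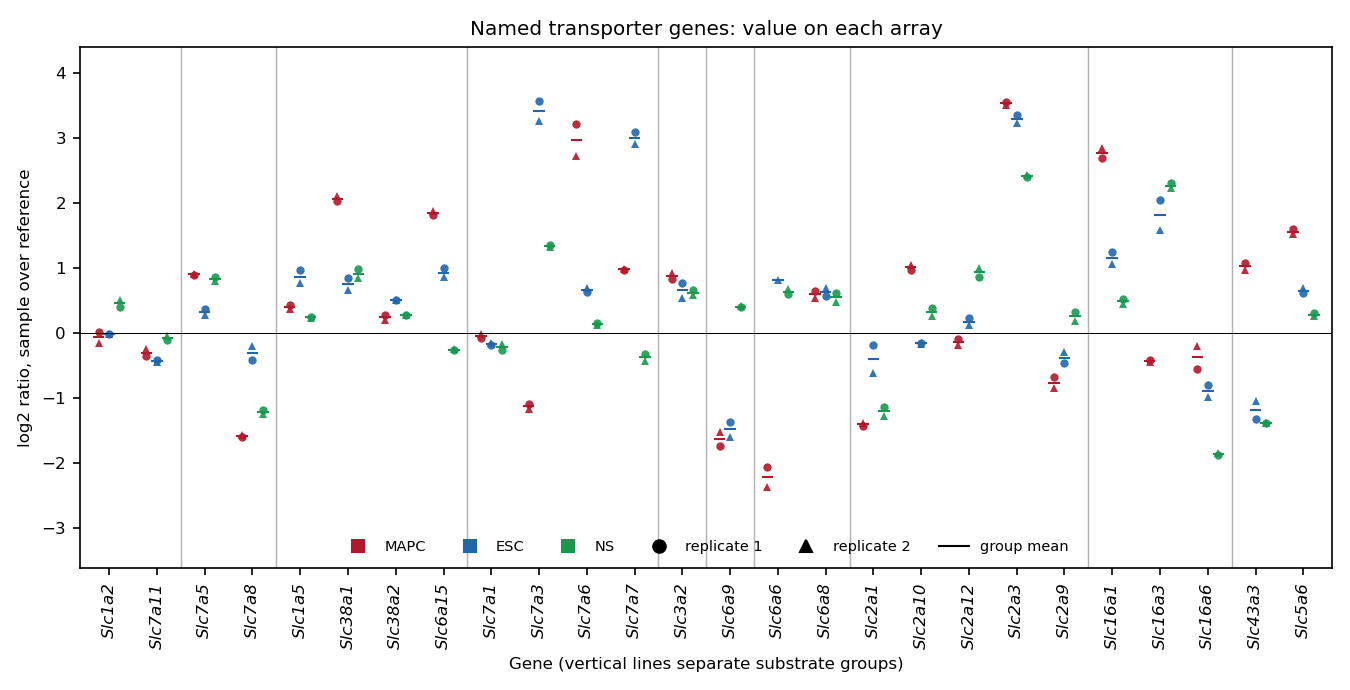
Log2 ratio to the reference (vertical axis) of 26 named transporter genes (horizontal axis, by substrate) on each array; colour gives the group, circles are replicate 1, triangles replicate 2 and short lines group means. Most of these genes were chosen for a called difference of at least 2-fold and arrays that did not overlap, so their separated groups follow from that choice. Slc7a3, for example, has ESC at 3.56 and 3.26 and MAPC at -1.09 and -1.16.

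**Figure D3:**
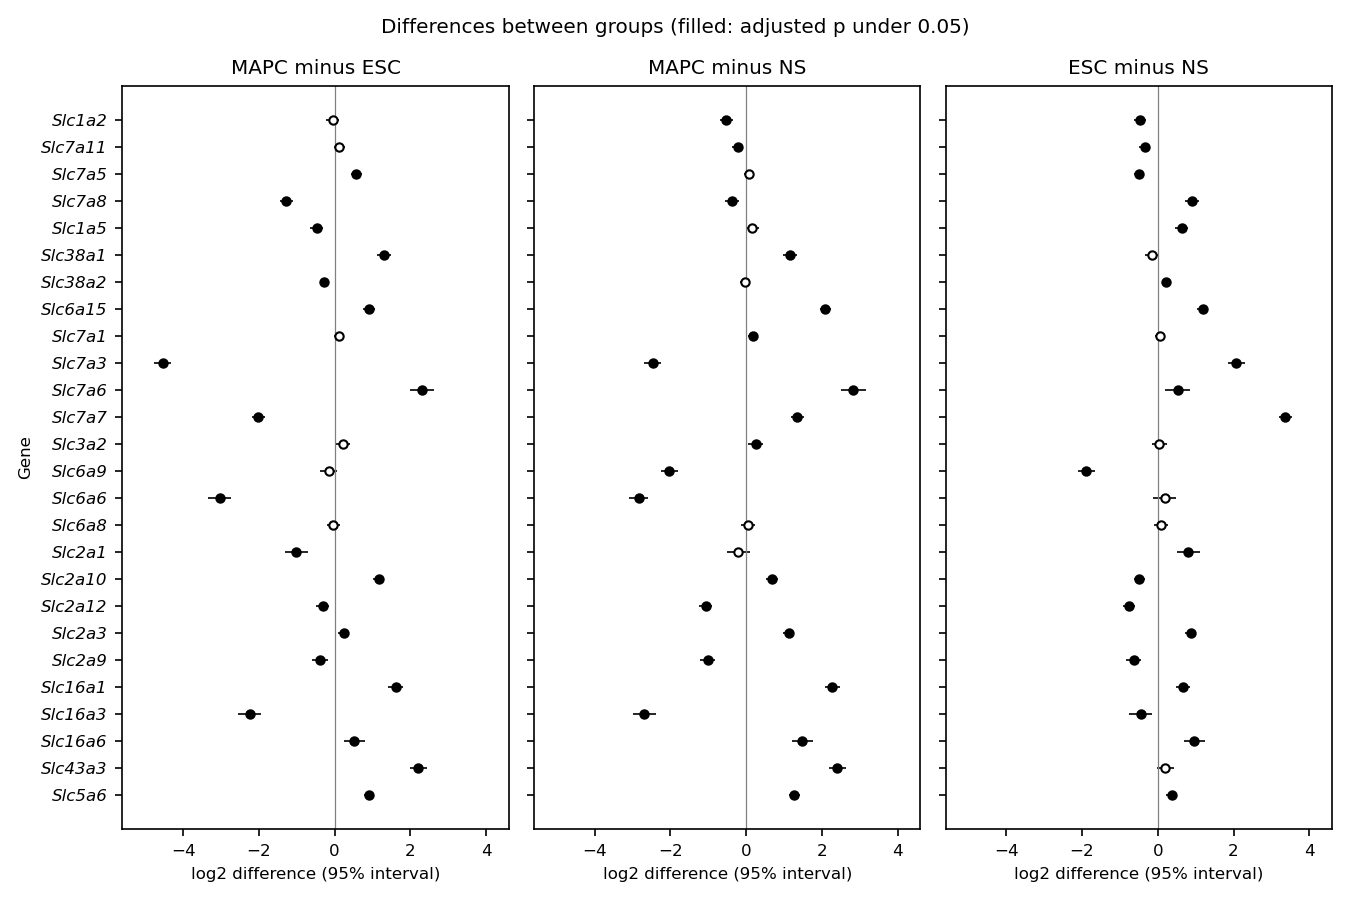
Log2 differences between groups for the same 26 genes, with 95% confidence intervals from the limma fit; filled points have an adjusted p under 0.05. The widest MAPC minus ESC difference is Slc7a3 at -4.53, and Slc6a8 is near 0 in all 3 panels.

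Of the 13 members with more than 1 probe, some gave the same picture from each probe and others did not. No pair of probes of a gene shared a run of more than 7 bases. Slc7a3 and Slc2a10 agreed in direction and call in every comparison. For Slc43a3 the second probe gave 0.90 and 0.98, both called, in place of 2.21 and 2.40. Slc3a2 gave 0.16 and 0.20 in place of 0.22 and 0.25, with only the MAPC minus NS difference called on either. For Slc16a1 the second probe read -0.35 and -0.26 in MAPC, -0.52 and -0.32 in ESC, and -0.48 and -0.41 in NS, with differences of 0.11 (adjusted p = 0.310) and 0.14 (adjusted p = 0.183), so none of the MAPC excess of the first appeared on it. For Slc2a12 the second probe read -0.095 and 0.041 in MAPC, 0.016 and 0.045 in ESC, and -0.064 and -0.020 in NS, with a MAPC minus NS difference of 0.015 (adjusted p = 0.879). The sample signal of this second probe was only 8.21 to 36.1 over the arrays, against 59.8 to 233 for the first. Ratios of so dim a probe are drawn toward 0 by the background step, so its small differences bound the measured ratio and not the transcript.

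Slc16a13 encodes a little-studied member of the MCT family, and its probes differed the other way. The brighter probe read -0.041 and -0.027 in MAPC, 0.0031 and -0.12 in ESC, and 0.23 and 0.0011 in NS. That probe was called in no comparison. The dimmer one read -0.56 and -0.48 in MAPC, 0.69 and 0.71 in ESC, and 0.69 and 0.66 in NS, with called differences of -1.22 (adjusted p = 1.54e-06) and -1.20 (adjusted p = 1.12e-06). The mean of its probes gave -0.60 (adjusted p = 0.000162) for MAPC minus ESC and -0.67 (adjusted p = 6.15e-05) for MAPC minus NS. Without NS replicate 2 the brighter probe was called against NS too, at -0.27 (adjusted p = 0.0435) for MAPC and -0.29 (adjusted p = 0.0351) for ESC. The pairs that disagreed are shown by the first 30 of their 60 bases, so that the transcripts they match can be looked up. Probe positions in the genome were not used here. The cause of the disagreement was not tested.
Slc16a1 probe 1: catctacaaaacaactctttaacacgtctg
Slc16a1 probe 2: ttcaaacccctcccatgttttccttattct
Slc16a13 probe 1: ggctcctctatcaggctacctccgggatgt
Slc16a13 probe 2: ctcctaggctaacaaaggcagatcaaaacg
Slc2a12 probe 1: gcaaaccaggagttcactgttaaaacaagt
Slc2a12 probe 2: aaagatgagtatcagtacagtttttgggat

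**Figure D4:**
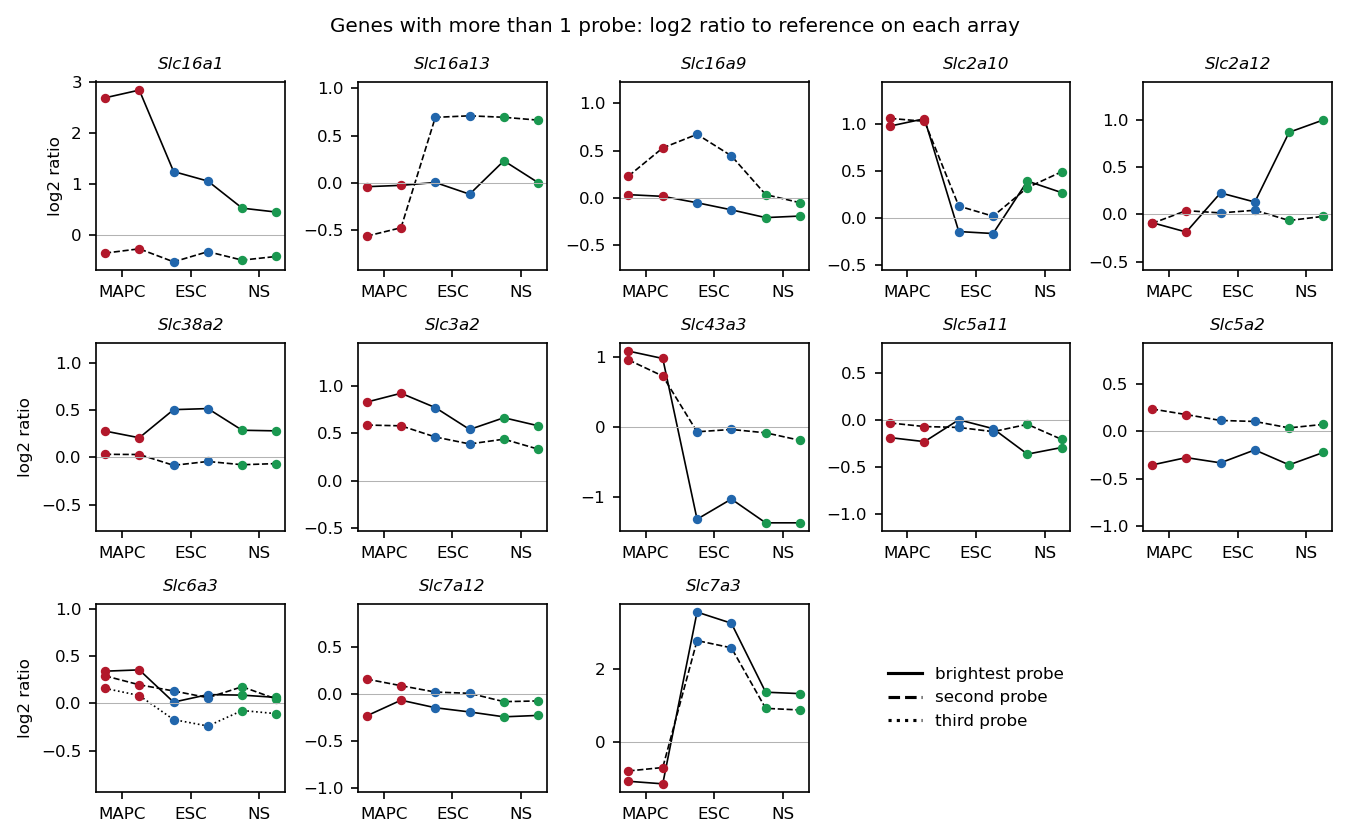
Log2 ratio to the reference on each array for the 13 genes with more than 1 probe; solid, dashed and dotted lines are the brightest, 2nd and 3rd probe, points are coloured by group and each panel has its own vertical range. The probes of Slc7a3 and Slc2a10 run together, while the solid line of Slc16a1 falls from 2.70 and 2.85 in MAPC and its dashed line stays between -0.52 and -0.26.

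Transcripts of the steps that use these solutes were also read. Of 14 glycolysis genes, 1 was called higher and 9 lower in MAPC than in ESC, 1 higher and 12 lower in MAPC than in NS, and 3 higher and 9 lower in ESC than in NS. Their median differences were -0.35, -1.03 and -0.42, beside all-gene medians near 0 and the all-gene shares of calls given above, against which the lists that follow are read too. The phosphofructokinase genes Pfkm and Pfkp encode the enzyme of a rate-setting step. Pfkm read -3.97 and -3.56 in MAPC, -1.39 and -1.54 in ESC, and -0.29 and -0.35 in NS, lowest in MAPC and highest in NS. Pfkp read -3.59 and -3.51 in MAPC, 0.034 and -0.28 in ESC, and -0.40 and -0.50 in NS, low in MAPC alone. Pfkm differed by -2.30 (adjusted p = 4.01e-06) and -3.44 (adjusted p = 3.05e-07) from ESC and NS, and Pfkp by -3.43 (adjusted p = 1.87e-07) and -3.10 (adjusted p = 1.71e-07). Ldhb, a lactate dehydrogenase subunit, was also low in MAPC at -2.27 and -2.08 in MAPC, 1.44 and 1.20 in ESC, and 0.81 and 0.81 in NS, and its MAPC minus ESC difference was -3.50 (adjusted p = 1.29e-07). Pgk1, phosphoglycerate kinase, was high in NS alone, at 0.16 and 0.24 in NS, -1.34 and -1.32 in ESC, and -1.61 and -1.56 in MAPC. Hk2, the inducible hexokinase, was the gene called higher in MAPC in both comparisons, by 0.26 (adjusted p = 0.00621) and 0.75 (adjusted p = 1.42e-05).

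Among 14 measured genes of the amino acid response, 4 were called higher and 7 lower in MAPC than in ESC, 4 and 9 against NS, and 3 and 5 in ESC against NS, with medians of -0.28, -0.48 and -0.18. Atf4 itself differed by -0.16 (adjusted p = 0.109) and -0.037 (adjusted p = 0.747) in the comparisons with ESC, neither called, and it was called between MAPC and NS at -0.20 (adjusted p = 0.0494). Dropping MAPC replicate 1 or 2, or NS replicate 1 or 2, gave -0.24 (adjusted p = 0.0699), -0.16 (adjusted p = 0.212), -0.16 (adjusted p = 0.218) and -0.23 (adjusted p = 0.0918), and the call was lost in 7 of 12 other processing settings (adjusted p from 0.0501 to 0.195). The MAPC minus ESC difference was called without ESC replicate 2, at -0.23 (adjusted p = 0.049), and with the replicate number as a block, at -0.16 (adjusted p = 0.0494). Atf3, a stress-induced transcription factor, was 2.37 and 2.12 in MAPC, -1.24 and -1.24 in ESC, and -1.02 and -1.13 in NS, high in MAPC alone. Cebpb, a partner of ATF4, was low in MAPC at -4.97 and -4.44 in MAPC, -2.24 and -2.15 in ESC, and -2.90 and -2.82 in NS. Stc2, a secreted stress protein, was 0.95 and 0.93 in NS, 0.16 and -0.26 in ESC, and -1.40 and -1.51 in MAPC, and Cth, which makes cysteine from cystathionine, was high in ESC at 1.83 and 1.72 in ESC, -0.14 and -0.26 in MAPC, and -0.098 and -0.17 in NS. Asns, asparagine synthetase, was called higher in MAPC than in ESC, by 0.26 (adjusted p = 0.00634), a call lost on the sample channel alone at 0.19 (adjusted p = 0.320), and than in NS, by 0.19 (adjusted p = 0.0234). The NS call was lost without MAPC replicate 2, at 0.15 (adjusted p = 0.130), NS replicate 1, at 0.20 (adjusted p = 0.0803), or NS replicate 2, at 0.18 (adjusted p = 0.110), and in 4 of 12 other processing settings (adjusted p from 0.057 to 0.944), with the opposite sign on the sample channel alone, at -0.015 (adjusted p = 0.944).

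Of 15 measured genes through which mTORC1 senses amino acids, 3 were called higher and 4 lower in MAPC than in ESC, 5 and 6 against NS, and 1 and 4 in ESC against NS, with medians of -0.071, -0.093 and -0.012. Rragd, a Rag GTPase, was 2.45 and 2.46 in NS, 2.14 and 1.94 in ESC, and -0.095 and -0.18 in MAPC, with MAPC minus ESC and MAPC minus NS differences of -2.18 (adjusted p = 3.83e-07) and -2.59 (adjusted p = 9.57e-08). Over the settings that tested it they ran from -4.03 to -0.66 and from -4.56 to -0.84, smallest without background subtraction and largest in the deposited processed intensities, and were called in each. Sesn3, a sestrin, was high in NS at 1.27 and 1.35 in NS, -0.29 and -0.49 in ESC, and -0.24 and -0.083 in MAPC. Sesn2, the leucine-binding sestrin, had the order NS, ESC, MAPC, at 1.45 and 1.28 in NS, 0.88 and 0.93 in ESC, and 0.38 and 0.27 in MAPC. Depdc5, of the complex that restrains mTORC1, had the reverse order at 1.48 and 1.24 in MAPC, 0.81 and 0.70 in ESC, and -0.16 and -0.19 in NS, with a MAPC minus NS difference of 1.53 (adjusted p = 3.19e-06). Mtor was called in no comparison, but without ESC replicate 1 its MAPC minus ESC difference was -0.24 (adjusted p = 0.0489).

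Of 7 genes of glutathione metabolism, 3 were called higher and 3 lower in MAPC than in ESC. Between MAPC and NS, 6 were higher and 1 lower in MAPC, and 7 of 7 were higher in ESC than in NS. Their medians were 0.11, 0.71 and 0.47. Gpx1, a glutathione peroxidase, was 0.60 and 0.62 in ESC, 0.38 and 0.25 in MAPC, and -0.66 and -0.82 in NS, with ESC above NS by 1.35 (adjusted p = 3.51e-06). Gpx4, which reduces lipid peroxides, was 1.26 and 1.61 in ESC, 1.01 and 1.02 in MAPC, and 0.35 and 0.29 in NS. Gclm, the modifier subunit of the first enzyme of glutathione synthesis, was 0.86 and 0.51 in MAPC, 0.29 and 0.30 in ESC, and -0.27 and -0.25 in NS. Gsr, glutathione reductase, was highest in ESC, at 0.84 and 0.79 in ESC, 0.32 and 0.37 in NS, and 0.16 and -0.059 in MAPC. Over the fits with 1 array left out and the other processing settings, the MAPC minus ESC call was lost in 5 for Gclm, 4 for Gpx4 and 2 for Gpx1. The MAPC minus NS call was lost in 5 for Gsr and 1 for Gpx4. Slc7a11, whose signal was dim, was highest in NS.

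Sodium pump subunits, which set the gradient that sodium-coupled carriers use, were called in 4 of 5, 5 of 5 and 4 of 5 genes. In MAPC 3 were higher and 1 lower than in ESC, and 3 higher and 2 lower than in NS, while ESC had 2 higher and 2 lower than NS. These shares of 80%, 100% and 80% stand beside 38.1%, 43.7% and 38.2% of all genes, and 50.4%, 55.2% and 51.1% of genes with a symbol. Atp1b1, a regulatory subunit, was 3.31 and 2.93 in MAPC, 1.21 and 1.05 in ESC, and 0.52 and 0.32 in NS, and MAPC exceeded ESC by 1.99 (adjusted p = 1.09e-05) and NS by 2.70 (adjusted p = 1.39e-06). Atp1b2, the subunit of glia, was 2.81 and 2.83 in NS, 0.98 and 0.94 in ESC, and -0.40 and -0.30 in MAPC, in the reverse order, with MAPC minus NS at -3.17 (adjusted p = 1.35e-08). Atp1b3 was called higher in MAPC than in both others, by 0.48 (adjusted p = 0.00372) over ESC, measured on 1 array there, and 0.46 (adjusted p = 0.00145) over NS. With the mean of its probes these were 0.076 (adjusted p = 0.829) and 0.62 (adjusted p = 0.0588).

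**Figure D5:**
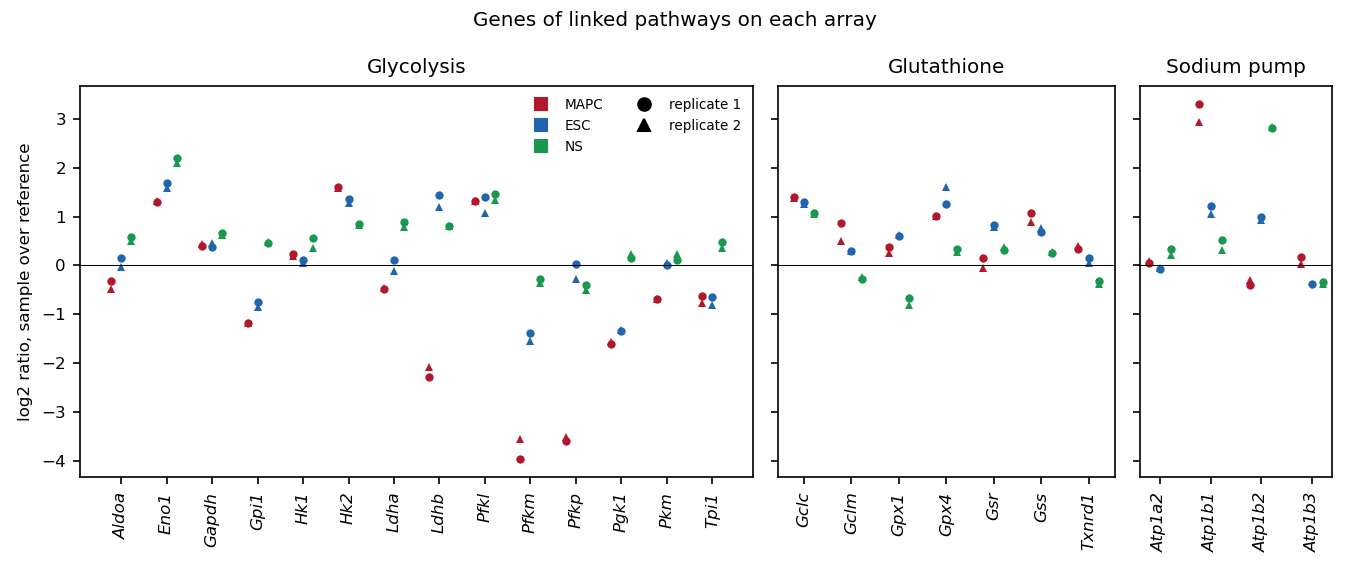
Log2 ratio to the reference on each array for measured genes of glycolysis, glutathione metabolism and the sodium pump; colour gives the group, circles are replicate 1 and triangles replicate 2. MAPC points lie lowest for Pfkm, Pfkp and Ldhb and highest for Atp1b1, and NS points lie highest for Atp1b2.

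Slc16a9 and Slc6a17, not described above, were called between MAPC and NS, and each call was lost in a fit with 1 array left out. In 24 members no difference was called. Besides Slc5a5 they were 23 genes, and their ratios lay between -0.82 and 0.70 on every array. Their differences were at most 0.23 in size, and the 95% intervals lay between -0.45 and 0.35, on the brightest probe of each gene. For Slc16a13 a second probe gave -1.22 for MAPC minus ESC and -1.20 for MAPC minus NS, outside those intervals. Among them were the serotonin carrier Slc6a4, the noradrenaline carrier Slc6a2, the glycine carrier Slc6a5, the brain proline carrier Slc6a7 and the proton-coupled amino acid carrier Slc36a1. Slc6a3, the dopamine carrier, was called slightly higher in MAPC, by 0.29 (adjusted p = 0.0034) over ESC and 0.27 (adjusted p = 0.00434) over NS. The former call was lost on the sample channel alone, at 0.41 (adjusted p = 0.0609), and the latter with median centring, at 0.16 (adjusted p = 0.0976). Signals near background are drawn toward a ratio of 0 by the background step, so for dim probes a small difference bounds the measured ratio and not the transcript. In the sample channel, 73 of the 79 members passed the 95th percentile of the negative controls on all 6 arrays. Slc16a4 did so on none. Slc2a2, the liver glucose carrier GLUT2, and Slc6a20a did so on 4, and Slc16a12 and Slc1a2 on 5. The 5 members not tested were Slc1a1, Slc2a2, Slc6a20a, Slc16a4 and Slc16a12.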

How the data were processed

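Mouse RNA was measured on 6 Agilent arrays of 2 colours, with the sample in green and the common reference in red. Per the file headers, the deposited scanner files hold spot intensity made by Agilent Feature Extraction. The mean and background intensity of each spot were used here, corrected with normexp (offset 50), normalized by loess within each array and written as log2 of sample over reference, in limma 3.58.1 under R 4.3.3 with data.table (version 1.17.8). A value table deposited by the authors holds log10 values, of unstated centring and direction, with array medians of 2.95 to 2.97. Differences between its arrays correlated at 0.979 with those of the processed log ratios, and it served as an alternative only.

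Control spots were dropped, as were outlier-marked ones, spots of a probe were averaged, and the brightest probe stood for a gene. A gene was tested where its sample signal was well above background in both arrays of some group. Gene names came from RefSeq: 15294 by accession, 15 by symbol and 72 by an older symbol, with 25625 unnamed. A single limma fit over the 6 arrays (residual degrees of freedom: 3) gave the 3 comparisons, adjusted by Benjamini-Hochberg over all genes tested. The number of arrays limits the precision, and the median standard error of a member's difference was 0.072.

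The members, gene lists and tests were chosen with earlier results of these data known. In each substrate class, up to 4 called genes with a difference of at least 2-fold and arrays that did not overlap, plus 15 fixed genes, were given in full, and up to 4 called genes of each pathway list. The other genes given with values, among them Slc5a5, Hk2, Atf4, Asns and Mtor, were chosen after their values were seen. The alternatives were other background and scale settings, the deposited processed intensities, the sample channel alone, the value table, other filters and probe rules, a replicate block, only the groups compared, and leaving out each array. The code was checked on simulated data. Some items are counted among the members or lists but not reported here by name. Figures were drawn with matplotlib 3.10.9.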

Additional observations from a re-analysis of the deposited data

How the results depend on the processing

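The counts of called transporters stayed within 1.5 times the reported values in every alternative run. Leaving out 1 array at a time gave 29 to 34 called members between MAPC and ESC (11551 to 12860 of all genes), 32 to 41 between MAPC and NS (13010 to 16047) and 33 to 37 between ESC and NS (11380 to 13577). Of the calls, 27 of 32, 31 of 40 and 31 of 36 were kept in every such fit, and 21, 28 and 25 in every alternative. The sample channel alone gave 24, 32 and 27 calls, and between MAPC and ESC its split was 13 higher and 11 lower, against 14 and 18 as reported. Over the single genes given with values, pathway genes included, 3724 of 3929 values stayed on their side of the threshold, 168 lost the call, 32 gained it and 5 turned sign with a call in at least 1 of the fits. A further 86 turned sign without a call in either, from reported sizes of at most 0.17. The called values that turned were MAPC minus ESC of Slc16a13 with the mean of probes, -0.60 (adjusted p = 0.000162), and, on the sample channel alone, MAPC minus NS of Slc7a1, -0.22 (adjusted p = 0.283), and of Asns, -0.015 (adjusted p = 0.944), and ESC minus NS of Slc38a2, -0.036 (adjusted p = 0.854), and of Slc5a11, -0.068 (adjusted p = 0.805). The cause was not tested. The 2 arrays a group limit what small differences can show, and probes near background bound the ratio only.

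A fit with the replicate number as a block gave 33, 41 and 36 called members (14265, 16399 and 14239 genes) and changed, among 219 single values, only MAPC minus ESC of Slc5a1 to -0.29 (adjusted p = 0.00378) and of Atf4 to -0.16 (adjusted p = 0.0494), both then called. The number coincides with the day on which Feature Extraction was run. All but 1 called member had both days measured in a comparison, and all of those had the same sign on both days (31, 40 and 36). Because a call already needs these same arrays to agree, that count could hardly differ and says nothing about the days. Deviations of same-numbered arrays from their group means correlated at 0.10, 0.16 and 0.21 over all genes, and the labels give no pairing.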
